A study of Homo sapiens with 8 samples.

Results

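The 10 genes described here encode structural and regulatory noncoding RNAs: RN7SK, RN7SL1, RN7SL2, RMRP, RPPH1, VTRNA1-1, VTRNA1-2, VTRNA1-3, VTRNA2-1 and TERC. They were taken by name, as the rows whose Ensembl identifier carries one of these symbols in GENCODE 44, from a count table of 58302 genes. The table holds 8 RNA-seq libraries of A549, a cell line established from a human lung adenocarcinoma: 4 from cells transfected with a scramble siRNA (labelled siCTRL) and 4 from cells transfected with an siRNA against APEX1 (labelled siAPEX1), the gene of the DNA repair endonuclease APE1. Both groups received 100 pmol of siRNA and were collected 72 h after transfection, and each library was made from 180 ng of total RNA with a small RNA kit that tails the 3′ end of every RNA, which the authors modified to read primary miRNA transcripts too. The study calls its replicates biological, and the labels do not say whether the 4 libraries of a group came from separate cultures. The p-values therefore measure the spread between these libraries.

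APEX1 (ENSG00000100823) had 51, 61, 64 and 47 counts in the libraries labelled siCTRL and 21150, 19470, 27916 and 20767 counts in the libraries labelled siAPEX1, the opposite of what the label of silencing names. Counts per gene do not separate the transcript from fragments of the transfected siRNA, and the study showed the silencing by protein. Each direction given here is therefore that of the libraries as labelled. Between 1639796 and 1949886 counts fell on genes in the libraries labelled siCTRL and between 1348386 and 1619500 in those labelled siAPEX1, so every library labelled siAPEX1 was smaller than every library labelled siCTRL. Of the 7 genes listed as typical of A549, all had counts, with a summed level of 2397 to 3013 counts against 1582 to 1973. CDKN2A and CDKN2B, which A549 cells have lost, had 0 counts in all 8 libraries, and 7 markers of blood, endothelial and connective tissue cells summed to 3 to 13 counts against 1 to 4.

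Most of these RNAs are made by RNA polymerase III, and TERC by RNA polymerase II. 7SK RNA holds the elongation factor P-TEFb in an inactive particle with HEXIM1, LARP7 and MEPCE. 7SL RNA is the scaffold of the signal recognition particle, which brings ribosomes that translate secreted and membrane proteins to the endoplasmic reticulum. RPPH1 is the catalytic RNA of RNase P, which trims the 5′ end of tRNA precursors, RMRP is its relative in the particle that cuts the ribosomal RNA precursor, and TERC is the template of telomerase. The vault RNAs are bound in part to the vault, a large cytoplasmic particle built from the major vault protein MVP. VTRNA1-1 binds the autophagy receptor p62, and VTRNA2-1, also called nc886, binds the kinase PKR.

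The 7SL genes lie on chromosome 14 of GRCh38, at the GENCODE 44 positions: RN7SL2 (ENSG00000274012, chr14:49862550-49862849, minus strand), RN7SL1 (ENSG00000276168, chr14:49586580-49586878, plus strand) and RN7SL3 (ENSG00000278771, chr14:49853616-49853914, minus strand), a further 7SL gene that is described because it is counted beside RN7SL2. RN7SL1 lies in an intron of RPS29 on the opposite strand, and RN7SL3 ends 8636 bases before RN7SL2 begins.

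The 3 vault RNA genes of the VTRNA1 cluster lie within 14972 bases of chromosome 5 on the plus strand: VTRNA1-1 (ENSG00000199990, chr5:140711275-140711373), VTRNA1-2 (ENSG00000202111, chr5:140718925-140719013) and VTRNA1-3 (ENSG00000202515, chr5:140726158-140726246). VTRNA2-1 (ENSG00000270123, chr5:136080470-136080597, minus strand) lies apart from them. Their sequences, read from GRCh38 at these positions and given 5′ to 3′, are shown because the VTRNA1 genes are compared with each other and differ mainly in the middle of the RNA. Capitals mark bases that differ from VTRNA1-1 in the alignment, inserted bases included, while bases that are missing against VTRNA1-1 are not marked.
VTRNA1-1: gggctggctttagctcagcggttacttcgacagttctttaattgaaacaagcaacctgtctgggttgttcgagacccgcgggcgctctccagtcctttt
VTRNA1-2: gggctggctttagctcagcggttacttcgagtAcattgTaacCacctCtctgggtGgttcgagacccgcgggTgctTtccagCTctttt
VTRNA1-3: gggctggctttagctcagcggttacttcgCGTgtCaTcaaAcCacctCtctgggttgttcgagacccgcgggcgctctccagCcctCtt
VTRNA2-1: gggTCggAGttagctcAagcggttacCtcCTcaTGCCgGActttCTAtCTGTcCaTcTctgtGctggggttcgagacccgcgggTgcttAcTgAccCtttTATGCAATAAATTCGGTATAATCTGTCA
Over the aligned columns, gaps included, VTRNA1-2 was 80.8% and VTRNA1-3 was 79.8% identical to VTRNA1-1, and VTRNA1-3 was 86.5% identical to VTRNA1-2. VTRNA2-1 was 52.6% identical to VTRNA1-1. The first 29 bases are the same in the 3 VTRNA1 genes.

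Other features of the genes were read from GRCh38 at the GENCODE 44 positions. A run of TTTT, at which RNA polymerase III stops, was found from the last 5 bases of the gene to 30 bases beyond it, on the gene's own strand, in 8 of the 10 genes, all but VTRNA1-3 and TERC, and in 30.2% of the 57532 genes of the table that GENCODE 44 places. The letters TATA beginning 35 to 20 bases before the start were found in 6 of the 10, namely RN7SK, RMRP, RPPH1, VTRNA1-1, VTRNA1-2 and TERC, and in 5.32% of all placed genes. These are matches of letters and not measured sites.

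The 10 RNAs fell into 3 classes by count. RN7SL2 was the most counted, with 36553, 35912, 39185 and 29898 counts in the libraries labelled siCTRL and 26349, 31096, 30161 and 28235 in those labelled siAPEX1. VTRNA1-1 had 1639, 2428, 1997 and 1851 counts against 1088, 1202, 1463 and 1133. VTRNA1-2 had 329, 533, 380 and 291 counts against 211, 281, 359 and 255, and VTRNA1-3 had 971, 1009, 923 and 892 against 866, 826, 917 and 832. These 4 genes were the ones that passed the filter on low counts. VTRNA2-1 had 1, 1, 1 and 0 counts against 0 in each library labelled siAPEX1, which is at or under a floor of 3 counts in every library, and no fold change is given.

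RN7SK (ENSG00000283293, chr6:52995621-52995948, plus strand), RN7SL1, RMRP (ENSG00000277027, chr9:35657754-35658017, minus strand), RPPH1 (ENSG00000277209, chr14:20343075-20343407, minus strand) and TERC (ENSG00000270141, chr3:169764520-169765060, minus strand) were listed at 0 in all 8 libraries. By counting error alone, 0 counts allow up to 3 counts, or 1.54 to 2.22 CPM, the count in a library scaled to 1000000 counts. RN7SK, RN7SL1, RMRP and RPPH1 belong to the abundant RNAs of most cells, and the value of 0 is that of the counting and is not a measured absence.

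**Figure D1:**
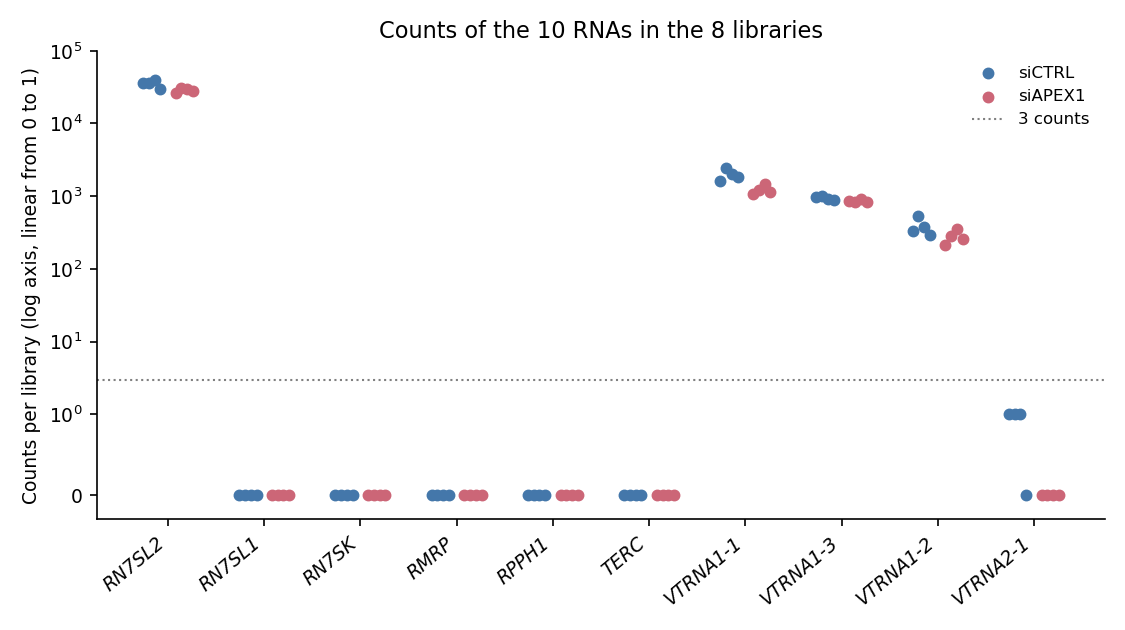
Counts of the 10 RNAs (horizontal axis) in the 8 libraries (vertical axis, logarithmic and linear from 0 to 1), with blue points for the 4 libraries labelled siCTRL, red points for the 4 labelled siAPEX1 and a dotted line at 3 counts. RN7SL2 lies between 26349 and 39185 counts, VTRNA1-1, VTRNA1-3 and VTRNA1-2 between 211 and 2428, VTRNA2-1 at 0 or 1, and the other 5 at 0.

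Overlap with other genes and repeated sequence were looked up for the genes at 0. The authors counted with STAR, whose gene counts take a read that maps to 1 place and overlaps 1 gene. All bases of RN7SK lie within exons of another gene on the same strand (ENSG00000202198, named 7SK), all bases of RPPH1 within a long noncoding RNA (ENSG00000259001), and 81.0% of TERC and 78.9% of VTRNA2-1 within a further entry for the same RNA. These partner entries were also at 0. Of the 1492 genes of the table with at least 90% of their exon bases inside another gene of the same strand, 89.5% were at 0 in every library, against 60.9% of the other 56040 genes. Among small RNA types alone, the class of most of these RNAs, the shares were 89.4% of 719 genes and 72.8% of 6274. RN7SL2 goes the other way, since it lies wholly within exons of a long noncoding RNA (ENSG00000282885, 3 counts in all) in GENCODE 44 and had the most counts of the 10. RMRP has no overlapping gene in GENCODE 44, and the 770 genes of the table without an entry there could not be looked up. The release the authors counted on is not given in the sources used here, and the part of overlap in the values of 0 was not tested.

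Of all 50-base windows of RN7SL2, 13.1% (33 of 251) occurred at 1 place in the genome, against 15.6% of those of RN7SL1, 22.9% of RN7SK and 62.0% of RN7SL3. For RMRP, RPPH1, TERC and the 4 vault RNA genes, every window occurred at 1 place. The study's reads were longer than 50 bases before trimming, and a longer read can be placed where a window cannot. These shares thus describe windows and not reads. The count of RN7SL2 therefore covers the reads that could be placed on it and not all 7SL RNA, and a gain or loss between the copies cannot be told apart from a change in 7SL RNA. The genome holds many near copies. The 677 RN7SL pseudogenes of the table had 1039 counts over all 8 libraries, 125 of them with any count, led by RN7SL660P with 245 counts, RN7SL664P with 195 and RN7SL499P with 75. The 293 RN7SK pseudogenes had 1234 counts, led by RN7SKP160 with 695, RN7SKP292 with 292 and RN7SKP48 with 81, so reads were placed on copies of 7SK while RN7SK stood at 0. Pseudogenes of RMRP and RPPH1 had 0 counts, and the 2 vault RNA pseudogenes had 17, of which 15 were on VTRNA3-1P.

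RN7SL2 was higher in the libraries labelled siAPEX1. After scaling by TMM, which sets the libraries to a common level over most genes, it had 18380, 17392, 18159 and 16546 CPM in the libraries labelled siCTRL and 21697, 25239, 21743 and 22428 CPM in those labelled siAPEX1. Every library labelled siAPEX1 was above every library labelled siCTRL. The means were 17619 ± 831 CPM and 22777 ± 1675 CPM (SD, n = 4 each), and the difference was 0.37 on the log2 scale (SE 0.080, adjusted p = 0.000306, edgeR quasi-likelihood test), or 1.29-fold. In bulk RNA, a change within each cell and a change in the share of cells that hold the RNA cannot be told apart.

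VTRNA1-3 rose the most of the 4 tested RNAs. It had 488, 489, 428 and 494 CPM in the libraries labelled siCTRL and 713, 670, 661 and 661 CPM in those labelled siAPEX1, again without overlap. The means were 475 ± 31.3 CPM and 676 ± 24.9 CPM (SD, n = 4 each), and the difference was 0.51 on the log2 scale (SE 0.086, adjusted p = 8.15e-06, edgeR), or 1.43-fold.

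VTRNA1-1 and VTRNA1-2 did not pass the test. VTRNA1-1 had 824, 1176, 925 and 1024 CPM against 896, 976, 1055 and 900 CPM, and the groups overlapped, at -0.05 on the log2 scale (SE 0.094, adjusted p = 0.759, edgeR). VTRNA1-2 had 165, 258, 176 and 161 CPM against 174, 228, 259 and 203 CPM, with siCTRL replicate 2 (siCTRL 2) among the highest, and stood at 0.18 on the log2 scale (SE 0.12, adjusted p = 0.253, edgeR). Without the library siCTRL 2, VTRNA1-2 passed the test, at 0.37 on the log2 scale and an adjusted p of 0.00949, and over all alternatives its adjusted p ran from 0.00949 to 0.601.

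In all, 2 of the 4 tested genes were called higher at an adjusted p of at most 0.05 and 0 lower (edgeR; DESeq2 also called 2 higher and 0 lower, and 0 were lower at an unadjusted p under 0.05). Of all 5368 genes tested, 15.9% were called higher and 15.8% lower. The CPM of 2 of the 4 genes did not overlap between the groups, against 28.9% of all genes tested. The study's results add a fold threshold, a log2 fold change of 1 or more in either direction, while its methods name a lower one. With the threshold of 1, 0 of the 4 were called, against 9.28% of all genes. The median log2 fold change was 0.28 over the 4 genes and -0.0035 over all genes.

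**Figure D2:**
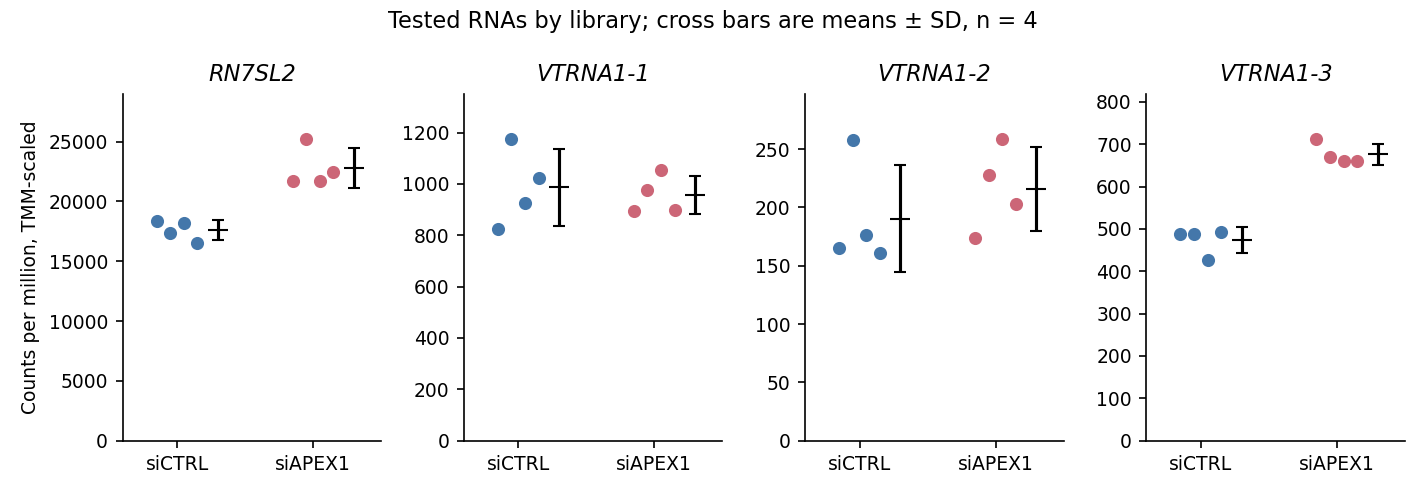
CPM after TMM scaling (vertical axes, each from 0) of RN7SL2, VTRNA1-1, VTRNA1-2 and VTRNA1-3 in the 4 libraries labelled siCTRL (blue) and the 4 labelled siAPEX1 (red), with the mean and SD of each group beside the points. For RN7SL2 and VTRNA1-3 every red point lies above every blue point, while for VTRNA1-1 and VTRNA1-2 the groups overlap.

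The directions depended on the scale. TMM factors were 1.10 to 1.14 in the libraries labelled siCTRL and 0.873 to 0.919 in those labelled siAPEX1, and scaling by library size alone moved the median over all genes to -0.34 on the log2 scale. On that scale, 6.33% of all genes were called higher and 36.2% lower. Of the 4 RNAs, 0 were then called higher and 1, VTRNA1-1, lower, at -0.39 on the log2 scale (adjusted p = 0.000578, edgeR). RN7SL2 stood at 0.03 (adjusted p = 0.797) and VTRNA1-3 at 0.17 (adjusted p = 0.117), both above the median of all genes. VTRNA1-2 had -0.16 (adjusted p = 0.261). Such a change of scale moves every gene by nearly the same amount. The order of the 4 genes by fold change, and their place against the median, therefore stayed the same by construction.

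**Figure D3:**
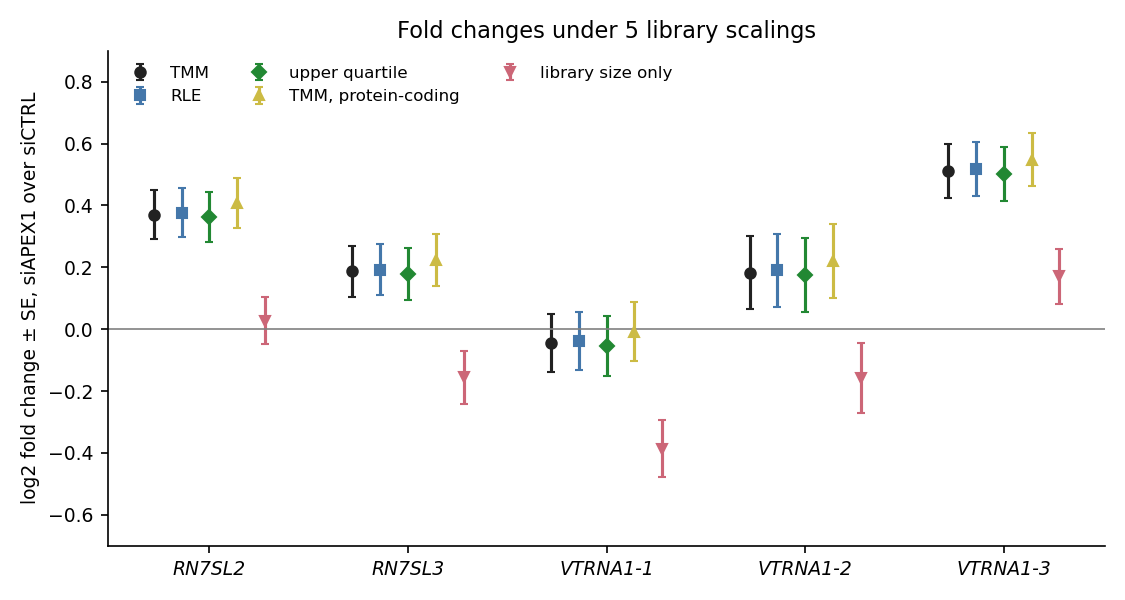
Log2 fold change of libraries labelled siAPEX1 over those labelled siCTRL (vertical axis), with the SE as bars, for RN7SL2, RN7SL3, VTRNA1-1, VTRNA1-2 and VTRNA1-3 under 5 scalings of the libraries (symbols). The 4 scalings that centre on most genes give nearly the same values, and scaling by library size alone lowers all 5 genes, RN7SL2 from 0.37 to 0.03 and VTRNA1-1 from -0.05 to -0.39.

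Shares of a library's counts use no scaling factor. The 10 RNAs together held 2.20%, 2.08%, 2.18% and 2.01% of the counts in the libraries labelled siCTRL and 2.11%, 2.34%, 2.03% and 2.09% in those labelled siAPEX1. The groups overlapped, and the means of 2.12% ± 0.0901 and 2.14% ± 0.134 (SD, n = 4 each) differed by 0.026 percentage points (exact permutation test of the 70 labelings, two-sided p = 0.800). RN7SL2 made up most of this share, with 1.94% ± 0.104 against 1.98% ± 0.135 (exact p = 0.657). The smallest p that 4 libraries against 4 allow is 0.0286.

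The vault RNAs moved apart from each other within this share. VTRNA1-1 held 0.0914%, 0.127%, 0.102% and 0.113% of the counts in the libraries labelled siCTRL and 0.0807%, 0.0841%, 0.0903% and 0.0778% in those labelled siAPEX1, and was lower in every one of the latter (exact permutation p = 0.0286). VTRNA1-3 held 0.0542%, 0.0526%, 0.0473% and 0.0544% against 0.0642%, 0.0578%, 0.0566% and 0.0571%, and was higher in every one (exact permutation p = 0.0286). VTRNA1-2 held 0.0208% ± 0.0047 against 0.0187% ± 0.0028 (SD, n = 4 each; exact permutation p = 0.514). The sum of the vault RNA genes was 0.181% ± 0.0194 against 0.161% ± 0.00683 (SD, n = 4 each; exact permutation p = 0.0571). Over the 7 shares computed, that of RN7SL3 included, the exact permutation p of VTRNA1-1 and of VTRNA1-3 was 0.0667 after Benjamini-Hochberg adjustment. Neither passed the correction, with all 4 libraries labelled siAPEX1 on 1 side of all 4 labelled siCTRL for each. An exact permutation p of 0.0286 is the smallest possible here. Passing therefore depended on how many of the 7 shares reached it, and not on the size of a difference.

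A ratio of 2 genes within a library does not depend on the scale. The ratio of VTRNA1-3 to VTRNA1-1 counts was 0.592, 0.416, 0.462 and 0.482 in the libraries labelled siCTRL and 0.796, 0.687, 0.627 and 0.734 in those labelled siAPEX1. The groups did not overlap, and the mean log2 ratio was higher by 0.55 in the libraries labelled siAPEX1 (exact permutation p = 0.0286), between 0.48 and 0.65 with any 1 library left out. Among the counts of the vault RNA genes, VTRNA1-1 thus made up 59.6% ± 2.58 against 51.7% ± 1.37 and VTRNA1-3 made up 29.0% ± 3.18 against 36.7% ± 2.75 (SD, n = 4 each), without overlap of the groups for either, while VTRNA1-2 made up 11.4% ± 1.57 against 11.6% ± 1.42. Over these 3 percentages, the exact permutation p of VTRNA1-1 and of VTRNA1-3 was 0.0286, or 0.0429 after Benjamini-Hochberg adjustment. That of VTRNA1-2 was 0.829. VTRNA1-1 and VTRNA1-3 thus passed within this smaller family, which was not planned and uses the same counts as the ratio. The 3 percentages of a library add up to the whole, and that of VTRNA1-2 was nearly level. The fall of VTRNA1-1 and the rise of VTRNA1-3 therefore mirror each other and are 1 result, which the adjustment counted as 2. The ratio of VTRNA1-3 to VTRNA1-1 was 1 of 7 computed, 6 between the tested members and 1 to RN7SL3, all chosen after the values were seen. Its exact permutation p was 0.100 after Benjamini-Hochberg adjustment over the 7 ratios, which does not pass. Here too, passing depended on how many of the 7 ratios reached the smallest possible p. Of the other ratios of members, that of RN7SL2 to VTRNA1-1 was 18.2 ± 3.40 against 23.9 ± 2.30 (exact permutation p = 0.0571), and the remaining 4 had exact permutation p-values from 0.114 to 0.514.

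**Figure D4:**
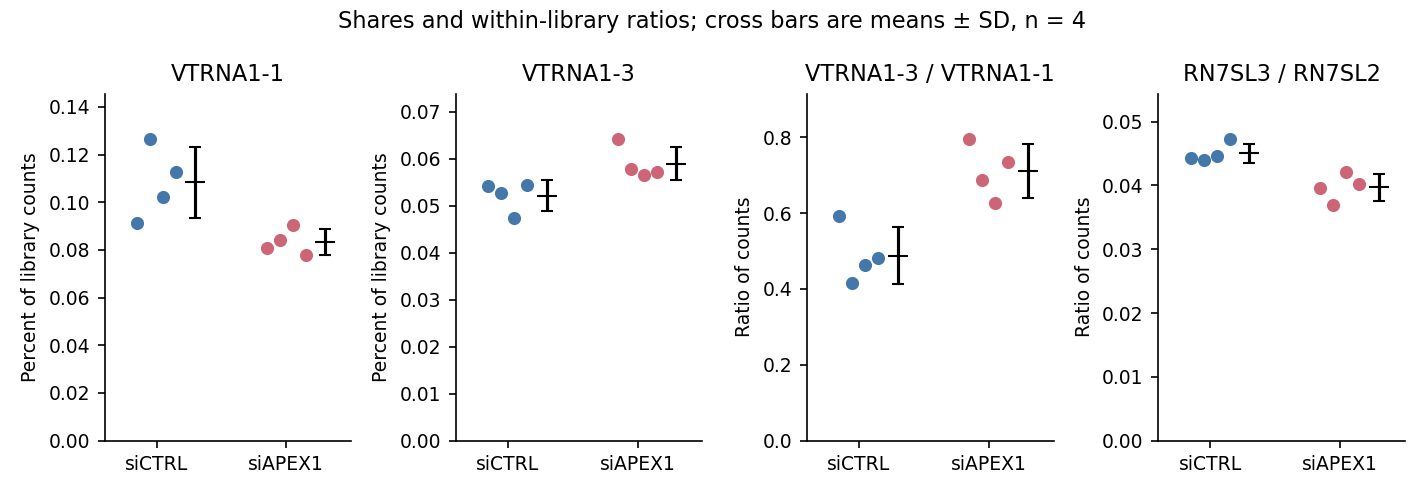
Percent of library counts held by VTRNA1-1 and VTRNA1-3 and the ratios of VTRNA1-3 to VTRNA1-1 and of RN7SL3 to RN7SL2 counts (vertical axes, each from 0) in the 4 libraries labelled siCTRL (blue) and the 4 labelled siAPEX1 (red), with the mean and SD of each group. In all 4 panels the groups do not overlap, with VTRNA1-1 lower, VTRNA1-3 and its ratio higher, and the RN7SL3 ratio lower in the libraries labelled siAPEX1.

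RN7SL3 was set beside RN7SL2 as the other counted 7SL gene. It had 1616, 1577, 1746 and 1414 counts in the libraries labelled siCTRL and 1043, 1146, 1270 and 1134 in those labelled siAPEX1. Its log2 fold change was 0.19 with TMM (SE 0.083, adjusted p = 0.0841, edgeR) and -0.16 with library size alone (adjusted p = 0.136). The ratio of RN7SL3 to RN7SL2 was 0.0442, 0.0439, 0.0446 and 0.0473 in the libraries labelled siCTRL and 0.0396, 0.0369, 0.0421 and 0.0402 in those labelled siAPEX1. It was lower in every library labelled siAPEX1, by 0.18 on the log2 scale (exact permutation p = 0.0286, and 0.100 after adjustment over the 7 ratios). RN7SL3 passed, higher, without the library siAPEX1 1 (0.23 on the log2 scale, adjusted p = 0.0432) and, over all 8 libraries, with TMM factors from protein-coding genes (0.22, adjusted p = 0.0360).

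Levels of different genes were compared per kilobase of exon. The kit tails the 3′ end of every RNA, so counts need not grow with the length of a gene, which was not tested. Without the length, the means in the libraries labelled siCTRL were 17619 CPM for RN7SL2, 987 for VTRNA1-1, 475 for VTRNA1-3 and 190 for VTRNA1-2. RN7SL2 had 58731 ± 2771 CPM per kilobase in the libraries labelled siCTRL, VTRNA1-1 had 9974 ± 1514, VTRNA1-3 had 5332 ± 352 and VTRNA1-2 had 2137 ± 514 (SD, n = 4). In the libraries labelled siAPEX1 the levels were 75922 ± 5584, 9662 ± 757, 7600 ± 280 and 2425 ± 407 CPM per kilobase in the same order. In both groups, no library of a gene overlapped with those of the next gene in this order. The level of RN7SL2 is that of its uniquely placed reads.

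The protein partners were looked up by role. Of 81 genes in 7 lists, 37 passed the filter on low counts, of which 1 was called higher and 3 lower (edgeR), against 15.9% and 15.8% of all genes tested, at levels far under those of the tested RNAs. In the 7SK particle and P-TEFb, 4 of 7 genes were tested and 1 passed. HEXIM1, which inhibits P-TEFb when bound to 7SK, had 54, 52, 57 and 48 counts in the libraries labelled siCTRL and 25, 23, 23 and 24 in those labelled siAPEX1, and fell by 0.49 on the log2 scale (SE 0.17, adjusted p = 0.0218, edgeR). LARP7, which protects the end of 7SK, and MEPCE, which caps it, had log2 fold changes of 0.30 and 0.60 and did not pass (adjusted p = 0.299 and 0.104, edgeR).

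In the signal recognition particle and its receptor, 6 of 8 genes were tested. SRP19, the subunit that binds 7SL RNA before SRP54 joins, had 12, 14, 12 and 14 counts against 1, 8, 5 and 2, and fell by 1.03 on the log2 scale (SE 0.40, adjusted p = 0.0435, edgeR), while the other 5 did not pass. Of the 12 protein genes of RNase P and RNase MRP, 2 were tested and 0 passed in edgeR or DESeq2 or at an unadjusted p under 0.05, and POP4, the one with the most counts, stood at -0.14 on the log2 scale (SE 0.26, adjusted p = 0.734, edgeR). Of the 7 genes of vault proteins and vault RNA binders, 5 were tested and 0 passed in edgeR or DESeq2 or at an unadjusted p under 0.05. Among them SSB, the La protein that binds the 3′ end of new polymerase III transcripts, stood at -0.11 on the log2 scale (adjusted p = 0.649, edgeR) and MVP, the shell of the vault, had -0.38 (adjusted p = 0.217, edgeR). Of the 10 genes of telomerase and TERC maturation, 5 were tested and 0 passed in edgeR or DESeq2, with 1, NHP2, under 0.05 before adjustment, and DKC1, the pseudouridine synthase of the telomerase particle, stood at 0.05 on the log2 scale (SE 0.15, adjusted p = 0.845, edgeR). TERT, the reverse transcriptase, had 0 counts in all libraries.

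For RNA polymerase III itself, 6 of 18 subunit genes were tested and POLR3D passed, higher by 0.72 on the log2 scale (SE 0.26, adjusted p = 0.0302, edgeR). It had 18, 15, 10 and 17 counts in the libraries labelled siCTRL and 16, 15, 14 and 18 in those labelled siAPEX1, so its counts were nearly level, in libraries with smaller totals. Of 19 genes of its factors, 9 were tested and MAF1, the repressor of RNA polymerase III, passed. It had 28, 44, 27 and 26 counts against 8, 13, 12 and 8, with 15.6 ± 3.91 CPM against 8.04 ± 1.97 CPM (SD, n = 4 each), and fell by 0.95 on the log2 scale (SE 0.25, adjusted p = 0.00333, edgeR). MAF1 passed in every alternative fit in which it was tested, with adjusted p-values from 3.26e-05 to 0.0280. It was not tested where 10 counts were required in every library, and its change was under the fold threshold of 1 on the log2 scale, which of the partners SRP19 alone passed.

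The other 3 partner calls did not hold in every alternative. With DESeq2, HEXIM1 (adjusted p = 0.122), SRP19 (adjusted p = 0.142) and POLR3D (adjusted p = 0.116) were not called. HEXIM1 was lost without siAPEX1 2 (adjusted p = 0.0573), siAPEX1 3 (0.110) or siAPEX1 4 (0.0546). SRP19 was lost without siAPEX1 1 (adjusted p = 0.213), siAPEX1 3 (0.0830), siAPEX1 4 (0.185) or siCTRL 3 (0.0521), with TMM factors from protein-coding genes (0.0523) and with all genes of at least 1 count (0.0599). It fell out of the test without siCTRL 1, siCTRL 2 or siCTRL 4, without APEX1 in the table, and where 10 counts were required in every library. POLR3D was lost without siAPEX1 1 (0.0599), siAPEX1 4 (0.0839), siCTRL 2 (adjusted p = 0.0552) or siCTRL 3 (0.128), and with all genes of at least 1 count (0.154). Calls were gained for NHP2, of the telomerase particle, and SRPRA, of the receptor, without siAPEX1 1 (lower, adjusted p = 0.0336 and 0.0400), and for NHP2 also where 10 counts were required in every library (0.0375). CCNT2, a cyclin of P-TEFb that was too low to be tested with all 8 libraries, was called higher without siAPEX1 2 (adjusted p = 0.0415) or siAPEX1 4 (0.0345). With all genes of at least 1 count, POLR3GL was called higher and SRPRB lower (adjusted p = 0.0471 and 0.00193). With library size alone, 0 of the 37 partners were called higher and 13 lower, against 6.33% and 36.2% of all genes on that scale, a share lower near that of all genes.

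**Figure D5:**
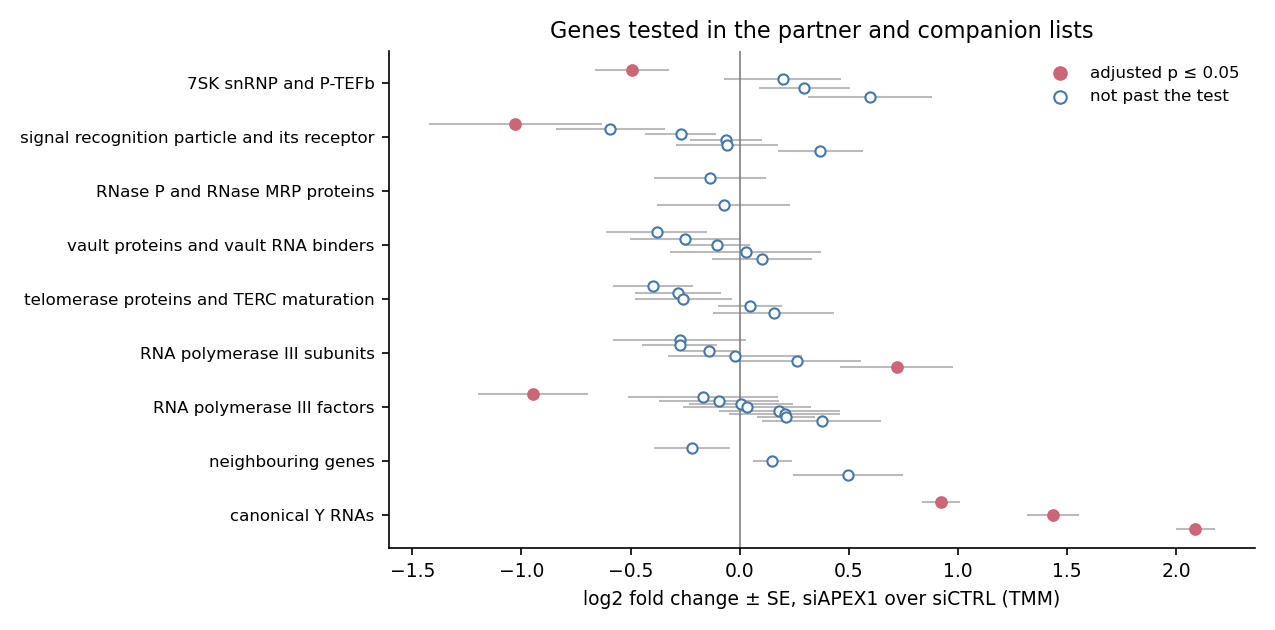
Log2 fold change of libraries labelled siAPEX1 over those labelled siCTRL after TMM scaling (horizontal axis), with the SE as bars, for every tested gene of the 7 partner lists, the neighbouring genes and the canonical Y RNAs (vertical axis). Filled red points passed the test at an adjusted p of at most 0.05: HEXIM1, SRP19 and MAF1 to the left of 0, and POLR3D and the 3 Y RNAs to the right.

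The genes next to the 10 RNAs ranged from 3 counts over all 8 libraries (ACTRT3) to 7085 (RPS29). Of PARP2, CCDC107, ACTRT3, FBXO9, CILK1, RPS29 and ZMAT2, 3 were tested and 0 passed in edgeR or DESeq2 or at an unadjusted p under 0.05. RPS29, which hosts RN7SL1, stood at 0.15 on the log2 scale (SE 0.088, adjusted p = 0.204), ZMAT2, near the VTRNA1 cluster, had -0.22 (SE 0.17, adjusted p = 0.363), and FBXO9, near RN7SK, had 0.50 (SE 0.25, adjusted p = 0.134; edgeR for each). FBXO9 passed without siCTRL 1 (adjusted p = 0.0492).

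The canonical Y RNAs, which are other products of RNA polymerase III, and the RNU6 genes were set beside RN7SL2 and VTRNA1-3. The 3 canonical Y RNAs of the table, RNY1, RNY3 and RNY4, were all called higher, with log2 fold changes from 0.92 to 2.09 with TMM and from 0.58 to 1.75 with library size alone. Of 16 tested RNU6 genes, named for U6 RNA of the spliceosome or as copies of it, 4 were called higher and 0 lower with TMM. With library size alone, 2 were called higher and 0 lower. Of all genes tested, 15.9% were called higher and 15.8% lower with TMM, and 6.33% and 36.2% with library size alone. The log2 fold changes of the RNU6 genes ran from 0.0024 to 2.33 with TMM and from -0.34 to 1.99 with library size alone. The RNU6 copies share sequence, and their counts are uncertain for the same reason as those of the 7SL genes. Several carry the names of pseudogenes, and whether RNA polymerase III makes them was not tested.

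The genes whose log2 CPM moved most like those of RN7SL2 over the 8 libraries were MT-TI (Pearson r = 0.994), the mitochondrial isoleucine tRNA, and MSI2 (r = 0.988), which encodes an RNA-binding protein. For VTRNA1-3 they were TGM2 (r = 0.991) and ZMYND8 (r = 0.990), and for VTRNA1-1 they were NDUFS4 (r = 0.908) and MACF1 (r = 0.871). These are the highest values among all tested genes, and the 8 points share the difference between the groups, the library and its scaling factor.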

How the data were processed

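Gene counts per library were deposited by the authors as whole numbers without normalization. The authors trimmed reads with cutadapt, aligned them to GRCh38 with STAR 2.5.3a and counted them per Ensembl gene. The annotation release and the strand column are not given in the sources used here. Groups and replicate numbers came from the labels. One column, N3, was matched to a sample whose title begins with N2 but names siCTRL replicate 3. Of 58302 genes, 57532 had a GENCODE 44 entry, and all rows name a gene.

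Groups were compared in edgeR 4.0.16 (R 4.3.3; TMM, quasi-likelihood test, Benjamini-Hochberg adjustment over 5368 genes). The filterByExpr function used minima of 10 for the count and 15 for the total, and the kept genes held 97.5% to 98.1% of the counts. The SE was taken as the absolute log2 fold change over the root of F. Shares and ratios were compared by two-sided exact permutation. Genome windows of 50 bases were matched on both strands. Programs were tested on simulated data. The 7SL sequences are not reported here. Intervals and floors cover counting error only.

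Alternatives were other scalings, DESeq2 1.42.0, other filters, each library left out, a block for the replicate number, and the table without APEX1, which was added after seeing the data. Named genes were the 10 members, the 3 most counted near copies of each family, up to 3 genes past the test per partner list or else the most counted one, the neighbouring genes, Y and RNU6 genes, the 2 genes most like each of the 3 most counted tested members, and APEX1. LARP7, MEPCE, MVP, TERT, NHP2, SRPRA, CCNT2, POLR3GL and SRPRB were named after their values were seen. The members and lists were chosen with earlier results of these data known.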

Additional observations from a re-analysis of the deposited data

Results flagged for a closer look

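Among 28 groups of 4 libraries (CPM of the 4 tested RNAs, shares of the 10 RNAs, the 7SL genes and the vault RNA genes, and the 7 ratios), 2 held a library far from the other 3 by Dixon's criterion on the gap over the range, and chance picks out about 5% of groups. VTRNA1-2 was at 258 CPM in the library siCTRL 2 and between 161 and 176 CPM in the other 3 libraries labelled siCTRL (gap over range 0.845). VTRNA1-3 was at 428 CPM in the library siCTRL 3 and between 488 and 494 CPM in the other 3 (gap over range 0.918), and its call did not depend on that library.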

How the results depend on the processing

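The 4 members tested kept 2 calls higher and 0 lower with RLE and upper-quartile factors, TMM factors from protein-coding genes, DESeq2, both other filters on low counts and without APEX1 in the table. With library size alone the counts were 0 higher and 1 lower, and with a fold threshold of 1 on the log2 scale they were 0 and 0. With each library left out they were 2 to 3 higher and 0 lower. Library size alone turned VTRNA1-2 to -0.16, and with libraries left out VTRNA1-1 ran from -0.12 to 0.049, with an adjusted p of at least 0.355. The partner calls, 1 higher and 3 lower, became 0 and 13 with library size alone, 0 and 1 with DESeq2, 0 and 1 with the fold threshold, and 0 to 2 higher and 1 to 4 lower with each library left out. The difference in the share held by the members ran from -0.038 to 0.064 percentage points with each library left out, and that of the 7SL genes from -0.018 to 0.087, none past the test. The vault RNA genes' share passed without siCTRL 1 (-0.026 points, exact permutation p = 0.0286). The causes were not tested.

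Libraries with the same replicate number did not deviate together (r of their deviations from the group means -0.037 to -0.0035), so the numbers were not taken to pair them. With the replicate block, edgeR called 2 members higher and 0 lower, 1 partner higher and 2 lower (SRP19 was lost, adjusted p = 0.0808), and 806 and 789 of all genes, against 856 and 847. The share's permutation within numbers gave p = 0.875, where 0.125 is the smallest possible. The number of counts limits RN7SK, RN7SL1, RMRP, RPPH1, TERC and VTRNA2-1, which could not be tested.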
